A study of Mus musculus with 2 samples.

Results

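The 10 genes examined here form the core of the circadian clock and its best known outputs. They are the activators Arntl, Clock and Npas2, the repressors Per1, Per2, Cry1 and Cry2, the nuclear receptor gene Nr1d1 and the output factors Dbp and Tef. They were taken by symbol from the 24542 gene symbols of the deposited table, and all 10 were found. The study asked how loss of NRK-2, a nicotinamide riboside kinase that feeds NAD synthesis in muscle, changes the heart after infarction. Male C57BL/6 mice, either NRK-2 KO or littermate control, had the proximal left anterior descending coronary artery permanently tied, and total RNA of the left ventricle away from the scar and its border was sequenced at 7 days. The labels list 1 sample of each genotype, while the table holds 3 numbered libraries of each, named here control 1 to 3 and KO 1 to 3. The age of the mice, the way the knockout allele was made and the time of day at which hearts were collected are absent from the labels used here.

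The clock runs in nearly every cell as a loop of transcription and repression. Arntl protein pairs with Clock or with its relative Npas2, and the pair binds E-box sequences and switches on the Per and Cry genes, whose proteins return to the nucleus and block it. The same pair drives Nr1d1, whose product represses Arntl through ROR elements, and drives Dbp and Tef, factors of the PAR bZIP family that act through D-box sequences on metabolic genes. In heart muscle cells this clock is known to set daily rhythms of fuel use and of electrical excitability. Transcripts of Arntl are known to peak at a different time of day from those of Dbp, Nr1d1 and the Per genes, so levels of all these genes depend on when tissue is taken. Whether collection time differed between the libraries was not tested.

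Libraries of the whole series held 22377348 to 33086384 counted reads. The targeted gene Nmrk2 had 308, 270 and 118 reads in control 1, 2 and 3, and 808, 9 and 0 reads in KO 1, 2 and 3. The library labelled KO 1 thus held more than any control library. Whether its label is right was not tested, and the labels do not say if the knockout allele leaves a transcript. Levels are given as CPM (reads per 1000000 reads, scaled by library total and a TMM factor). The summed level of 4 markers of atrial muscle was 435, 357 and 2.31 CPM in control 1 to 3 and 468, 7.75 and 2.74 CPM in KO 1 to 3, the marker Bmp10 being at 0 in all 6. Control 1, control 2 and KO 1 thus had the highest atrial sums as well as the most Nmrk2 reads. Markers of heart muscle were abundant, 6 cardiomyocyte genes, most of them shared by atrium and ventricle, summing to 18196 CPM or more in every library. In bulk tissue, fewer cells of a type cannot be told apart from less RNA per cell.

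No clock gene passed the test, and the largest shifts ran in opposite directions in different arms of the loop. Arntl stood 1.38-fold higher in the libraries labelled knockout, and its partner Clock stayed close to its control level. Dbp stood 1.82-fold lower, Nr1d1 1.50-fold lower and Tef 1.46-fold lower. Per1, Per2, Cry1 and Cry2 had fitted differences no larger than 0.19 on the log2 scale. Per3, a clock gene outside the members, had a log2 fold change of -0.58 (edgeR adjusted p = 0.196). In CPM, Arntl, Dbp, Tef and Cry1 were the 4 members whose knockout libraries did not overlap the control libraries. That was so for 16.4% of all genes tested on the higher side and 14.5% on the lower side. Of the 14466 genes tested, 2.61% were called higher and 1.09% lower in the libraries labelled knockout. Log2 fold changes are knockout over control, fitted for edgeR's quasi-likelihood test. Their SE was derived as the size of the log2 fold change divided by the square root of that test's F statistic. The adjusted p-values are Benjamini-Hochberg adjusted over all genes tested. Without the library labelled KO 1, the log2 fold change was 0.51 for Arntl, -0.88 for Dbp, -0.46 for Tef and -0.56 for Nr1d1. None passed in that fit (edgeR adjusted p = 0.156, 0.246, 0.223 and 0.394 in that order). A fit chosen after seeing the data left out control 1, control 2 and KO 1, the libraries with the highest atrial sums. With 1 control left, its log2 fold changes were 0.56 for Arntl, -0.72 for Dbp, -0.41 for Tef and only -0.12 for Nr1d1.

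The sequences just ahead of the start sites of the members with the clearest separation between genotypes are shown first, because these windows hold or lack the elements through which the loop is wired. They are RefSeq windows of build GRCm38.p6, which has the chromosome coordinates of mm10, and 9 of 10 members matched by symbol, Per2 being the other. Each line gives the 250 bases before a start site, 5′ to 3′ on the gene's own strand, and capitals mark an E-box (CACGTG). The 4 windows lie on the plus strand, Arntl at chr7:113207215-113207464, Dbp at chr7:45704997-45705246, and Tef at chr15:81802423-81802672 (upstream start) and chr15:81811164-81811413 (downstream start).
Arntl: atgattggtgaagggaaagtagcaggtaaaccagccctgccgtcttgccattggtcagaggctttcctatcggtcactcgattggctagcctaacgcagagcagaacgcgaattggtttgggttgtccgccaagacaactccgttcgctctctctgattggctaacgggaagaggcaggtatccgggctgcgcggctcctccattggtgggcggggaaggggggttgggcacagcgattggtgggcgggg
Dbp: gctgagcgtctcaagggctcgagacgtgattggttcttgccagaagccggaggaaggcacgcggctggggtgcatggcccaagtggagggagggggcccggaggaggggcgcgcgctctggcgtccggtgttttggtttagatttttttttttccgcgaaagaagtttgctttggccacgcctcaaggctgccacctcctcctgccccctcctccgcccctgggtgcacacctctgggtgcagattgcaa
Tef, upstream start: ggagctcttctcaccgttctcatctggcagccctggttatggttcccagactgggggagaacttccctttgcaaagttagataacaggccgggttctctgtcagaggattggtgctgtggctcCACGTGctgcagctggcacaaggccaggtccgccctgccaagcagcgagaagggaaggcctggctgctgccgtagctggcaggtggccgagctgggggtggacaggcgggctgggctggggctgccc
Tef, downstream start: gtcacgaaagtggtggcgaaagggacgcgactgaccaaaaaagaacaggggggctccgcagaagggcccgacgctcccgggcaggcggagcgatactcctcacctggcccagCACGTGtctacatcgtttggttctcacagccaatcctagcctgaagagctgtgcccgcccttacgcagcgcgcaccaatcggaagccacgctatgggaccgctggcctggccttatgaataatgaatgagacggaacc

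Both start sites of Tef have an E-box, at base -127 of the upstream start and at base -138 of the downstream start, counted to the first base of the motif. Windows from 250 bases before to 50 bases after each start were searched on both strands, 14 windows for the 9 members. The E-box was found in 3 members, Per1, Cry1 and Tef. It was in 4 of the 14 windows and in 7.15% of all 32851 promoter windows. The variant CACGTT was found in Cry1, Cry2 and Nr1d1, in 3 of the 14 windows and in 4.68% of all windows. The ROR element core AGGTCA was found in Arntl, Clock and Per1, in 3 of the 14 windows and in 16.3% of all windows. In Arntl it lies within an annotated first exon. The stretch chr7:113207530-113207559 on the plus strand is shown, with the core in capitals and 12 bases on each side.
Arntl, ROR element core: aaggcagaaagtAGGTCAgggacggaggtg

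The D-box (TTATGTAA or TTACGTAA, 1.06% of all windows) and the cAMP response element (TGACGTCA, 1.79%) were in none of the 9 members' windows, and Dbp and Npas2 had none of the 5 motifs. A match describes letters in these windows only.

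**Figure D1:**
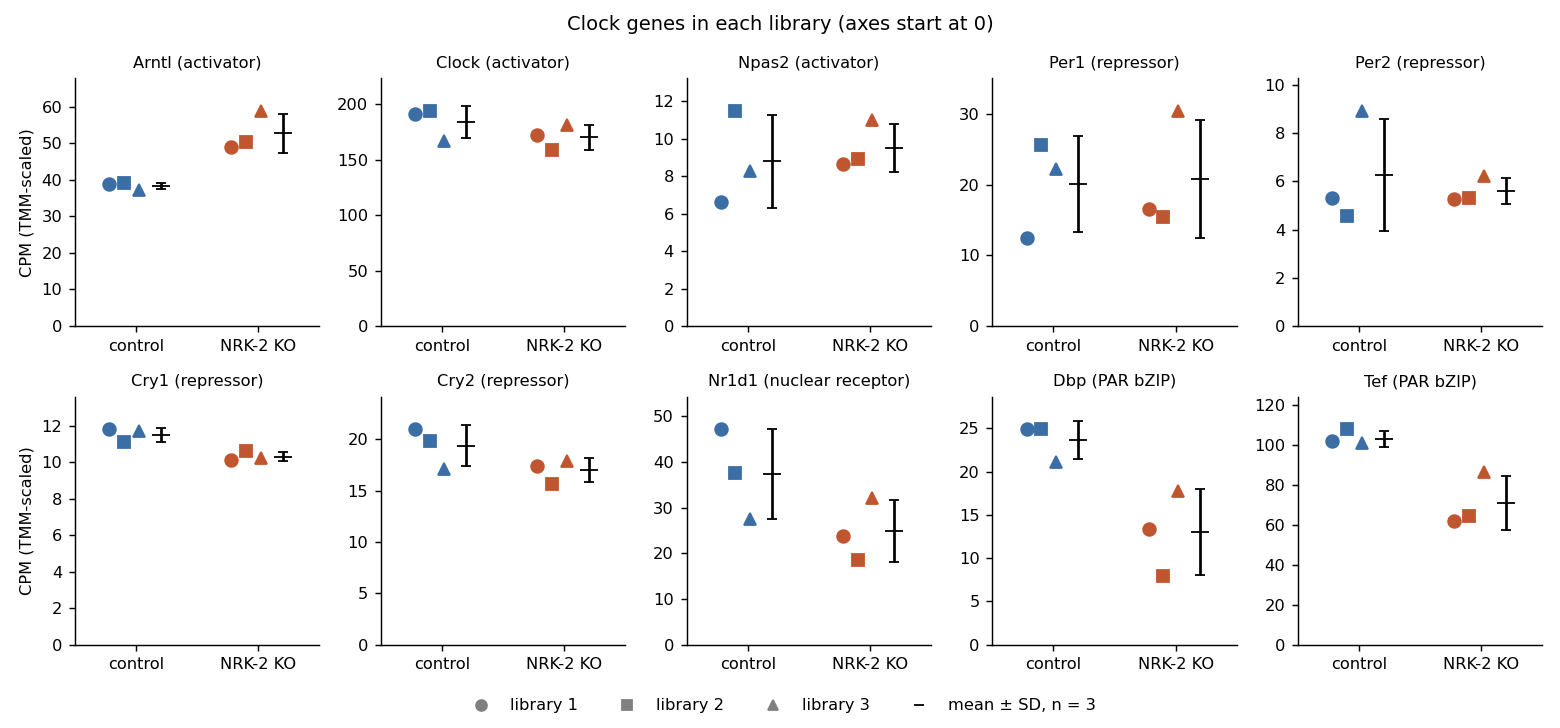
Level of each of the 10 clock genes in each library, in CPM on axes that start at 0, with blue for control and orange for NRK-2 KO, a marker shape for each library number, and the mean ± SD of 3 libraries in black. Arntl at 48.9 to 58.9 CPM in KO lies above 37.3 to 39.0 CPM in control, and Dbp and Tef lie below their controls in all 3 KO libraries.

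Among the activators, Arntl (gene ID 11865, chromosome 7, 113207465 to 113314126) was at 38.8, 39.0 and 37.3 CPM in control 1 to 3 and at 48.9, 50.4 and 58.9 CPM in KO 1 to 3. The 3 control libraries lay within a narrow band, with a coefficient of variation of 2.40%, and every knockout library was above them. Its mean went from 38.3 ± 0.920 to 52.7 ± 5.36 CPM (SD, n = 3 libraries each), and it missed the threshold (log2 fold change 0.46 ± 0.12 SE, edgeR adjusted p = 0.0743). Arntl passed with DESeq2 (adjusted p = 0.0142), with limma on the deposited FPKM (0.0486) and, by edgeR, without control 3 (0.0457). It did not pass in the other 11 of 14 alternatives. By edgeR, the adjusted p was 0.212 with the library number as a block and 0.156 to 0.235 without any other single library.

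Clock (gene ID 12753, chromosome 5, 76209868 to 76304792), the partner of Arntl and a histone acetyltransferase, was at 191, 194 and 167 CPM in control and 172, 159 and 181 CPM in knockout. These ranges overlapped, and the fitted difference was within its error (log2 fold change -0.11 ± 0.12 SE, edgeR adjusted p = 0.614). Npas2 (gene ID 18143, chromosome 1, 39194272 to 39363240), which can replace Clock in the pair, was the scarcest activator. Its level was 6.62, 11.5 and 8.28 CPM in control and 8.63, 8.93 and 11.0 CPM in knockout, again overlapping (log2 fold change 0.11 ± 0.25 SE, edgeR adjusted p = 0.813). Its sign turned without control 1 (-0.06) or KO 3 (-0.02), so these libraries give Npas2 no direction.

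Per1 and Per2 varied more between single libraries than between genotypes. Per1 (gene ID 18626, chromosome 11, 69098956 to 69109957), a repressor gene that also answers quickly to glucocorticoid and cAMP signals, was at 12.5, 25.7 and 22.2 CPM in control and at 16.6, 15.4 and 30.5 CPM in knockout. Highest and lowest libraries differed 2.05-fold within control and 1.98-fold within knockout, against a fitted log2 fold change of 0.05 (SE 0.35, adjusted p = 0.951 by edgeR). Per2 (gene ID 18627, chromosome 1, 91415982 to 91459328) was at 5.30, 4.58 and 8.93 CPM in control and 5.28, 5.32 and 6.21 CPM in knockout. Control 3 stood above the other 5 libraries, and the log2 fold change of -0.16 (SE 0.30, adjusted p = 0.772) became 0.18 without it.

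The cryptochromes, which bind the activator pair directly, were the steadiest repressors. Cry1 (gene ID 12952, chromosome 10, 85131700 to 85185054) was at 11.8, 11.1 and 11.7 CPM in control and 10.1, 10.6 and 10.2 CPM in knockout. Its knockout libraries lay just below its controls, by an amount close to the error of the fit (log2 fold change -0.16 ± 0.14 SE, edgeR adjusted p = 0.514). That separation depended on the scaling. In the deposited FPKM the libraries of Cry1 overlapped, at 3.51, 3.30 and 4.10 in control and 3.34, 3.71 and 3.36 in knockout. Cry2 (gene ID 12953, chromosome 2, 92403647 to 92434069) was at 21.0, 19.9 and 17.1 CPM in control and 17.4, 15.7 and 17.9 CPM in knockout. Control 3 fell among the knockout libraries here, and the gene did not pass (log2 fold change -0.19 ± 0.14 SE, edgeR adjusted p = 0.430).

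Nr1d1 (gene ID 217166, chromosome 11, 98767932 to 98775377), which encodes the repressor of Arntl, was at 47.2, 37.5 and 27.5 CPM in control and 23.9, 18.6 and 32.1 CPM in knockout. Control 3 lay below KO 3, so the groups overlapped, and the spread within each genotype was wide. Its mean was 37.4 ± 9.82 CPM in control and 24.9 ± 6.82 CPM in knockout, and it did not pass (log2 fold change -0.59 ± 0.26 SE, edgeR adjusted p = 0.215). Its exons share 263 bases with Thra, the thyroid hormone receptor gene on the opposite strand. Thra itself was at 101, 102 and 76.2 CPM in control and 76.4, 69.5 and 74.2 CPM in knockout (adjusted p = 0.186).

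Among the outputs, Dbp (gene ID 13170, chromosome 7, 45705247 to 45710203) had the largest fold change of the 10 members. Its level was 24.9, 24.9 and 21.1 CPM in the control libraries and 13.4, 7.89 and 17.7 CPM in knockout. Each knockout library was below each control, and KO 2 stood apart at the bottom, the knockout libraries differing 2.25-fold among themselves. The mean was 23.6 ± 2.20 CPM in control and 13.0 ± 4.94 CPM in knockout, and the threshold was missed (log2 fold change -0.86 ± 0.29 SE, edgeR adjusted p = 0.121, 0.0442 by DESeq2). The log2 fold change was -0.60 without KO 2 and -1.16 without KO 3. Dbp shares 539 exon bases with Sphk2, a sphingosine kinase gene on the opposite strand, which was at 36.7, 30.0 and 30.4 CPM in control and 24.9, 21.6 and 22.6 CPM in knockout (adjusted p = 0.0850). The labels do not say if counting took strand into account. Without strand, reads of Dbp and Sphk2, or of Nr1d1 and Thra, cannot be told apart where their exons overlap. Exons of Cry2, Tef and Arntl also overlap opposite-strand genes, by 295 bases (D930015M05Rik), 193 bases (Gm17597) and 33 bases (Gm45355). The same limit holds there.

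Tef (gene ID 21685, chromosome 15, 81802673 to 81826863), the other PAR bZIP member of the list, was the most abundant of the outputs. Its libraries stood at 102, 108 and 101 CPM in control and 62.0, 64.3 and 86.5 CPM in knockout. KO 1 and KO 2 were close together and KO 3 stood between them and the controls. The mean was 103 ± 4.05 CPM in control and 70.9 ± 13.6 CPM in knockout (log2 fold change -0.54 ± 0.15 SE, edgeR adjusted p = 0.0906, 0.0156 by DESeq2).

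Read over the 10 members, 0 were called higher and 0 lower by edgeR. At an unadjusted p under 0.05 there were 3 of 10, Arntl, Dbp and Tef, where 25.9% of all genes tested reached that level. Non-overlapping libraries in CPM were found for 1 member that was higher (16.4% of all genes) and for 3 that were lower (14.5% of all genes). With DESeq2, 1 member was called higher and 2 lower, where 7.71% and 9.19% of all genes were called. Without control 3, 1 member was called higher by edgeR and 0 lower, and 11.6% and 12.9% of all genes tested were called. The median log2 fold change of the members was -0.16, against 0.01 over all genes tested. A higher fitted level was found for 3 members and a lower one for 7 (7377 and 7089 of all 14466 genes).

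**Figure D2:**
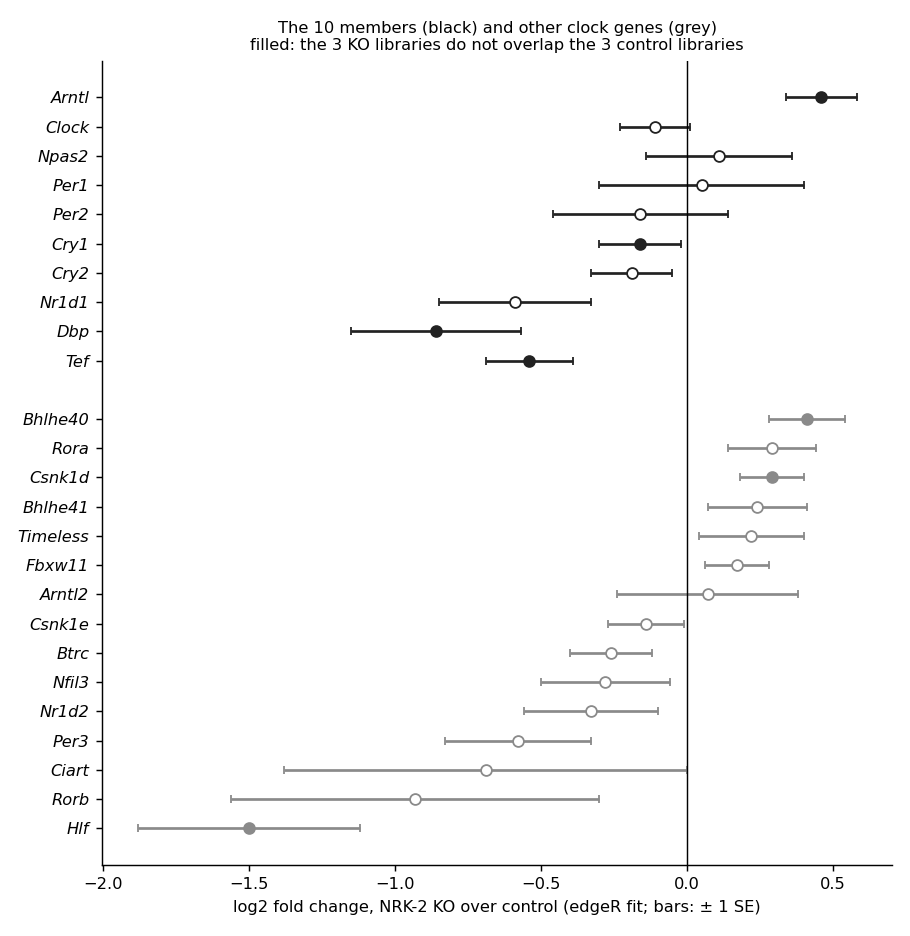
Log2 fold change of NRK-2 KO over control with bars of 1 SE for the 10 members (black) and 15 other clock genes (grey), filled where the 3 libraries of one genotype do not overlap the 3 of the other. Arntl at 0.46 and Dbp at -0.86 are the extremes of the members, and Hlf at -1.50 is the lowest of the other clock genes.

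Per length of transcript, on the scale of the deposited FPKM, Tef was the highest member in control at 23.3 ± 1.77, followed by Clock at 17.9 ± 0.269. Dbp (13.3 ± 0.0342), Nr1d1 (12.7 ± 2.44) and Arntl (12.5 ± 0.887) came next and did not separate from each other in control. Cry2 (4.57 ± 0.136), Per1 (4.14 ± 1.49) and Cry1 (3.63 ± 0.415) followed, Per1 overlapping both of its neighbours. Npas2 (1.99 ± 0.537) and Per2 (1.04 ± 0.498) were lowest and overlapped as well. In knockout, Arntl had a mean FPKM of 18.5 ± 1.65 and stood level with Clock at 17.9 ± 0.694 and Tef at 17.1 ± 3.01, and Dbp at 7.83 ± 2.78 was below all 3.

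A ratio of 2 genes within a library does not depend on how libraries are scaled. The log2 ratio of Arntl to Dbp in CPM was 0.64, 0.65 and 0.82 in control 1 to 3 and 1.87, 2.68 and 1.73 in KO 1 to 3. Its mean was 0.70 ± 0.10 in control and 2.09 ± 0.51 in knockout, a difference of 1.39, which was the same on the FPKM scale. Ratios of Arntl to 3 further members were taken after the values had been seen. The log2 ratio of Arntl to Tef was -1.43 ± 0.04 in control and -0.42 ± 0.12 in knockout, that to Nr1d1 was 0.07 ± 0.36 and 1.11 ± 0.29, and that to Clock was -2.26 ± 0.08 and -1.69 ± 0.10 (SD, n = 3 libraries each). In all 4 ratios each knockout library was above each control library. These ratios are descriptions of values already given, and have no test. Between paired repressors the ratios were similar, that of Cry1 to Cry2 being -0.74 ± 0.17 in control and -0.72 ± 0.13 in knockout.

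**Figure D3:**
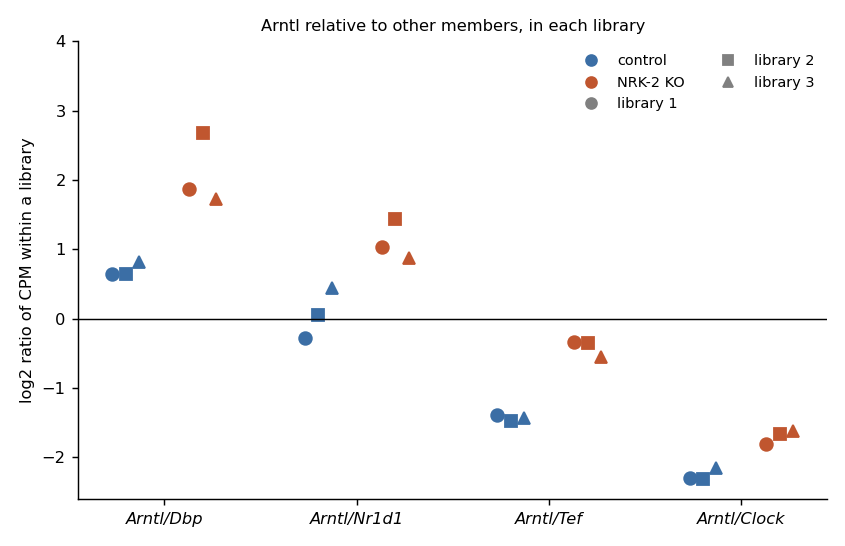
Log2 ratio of Arntl to Dbp, Nr1d1, Tef and Clock within each library, in CPM, with blue for control, orange for NRK-2 KO and a marker shape for each library number. The ratio of Arntl to Dbp runs from 0.64 to 0.82 in control and from 1.73 to 2.68 in KO.

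The 3 knockout libraries were not alike. KO 3 was the highest of them for 9 of the 10 members, where it was the highest for 33.6% of all genes tested, and it was the lowest for 0 of the 10. The exception was Cry1, highest in KO 2. KO 3 was thus highest both for Arntl, where it lay farthest from control, and for Dbp, Tef and Nr1d1, where it lay nearest. Dbp and Nr1d1 were lowest in KO 2, at -1.11 and -0.68 log2 units from their means over 6 libraries. In control, Per1 was lowest in control 1 (-0.64) and Per2 highest in control 3 (0.62). The median coefficient of variation of the members was 9.88% in control and 11.8% in knockout, against 16.2% and 11.9% over the 11417 genes whose mean reached 5 CPM.

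**Figure D4:**
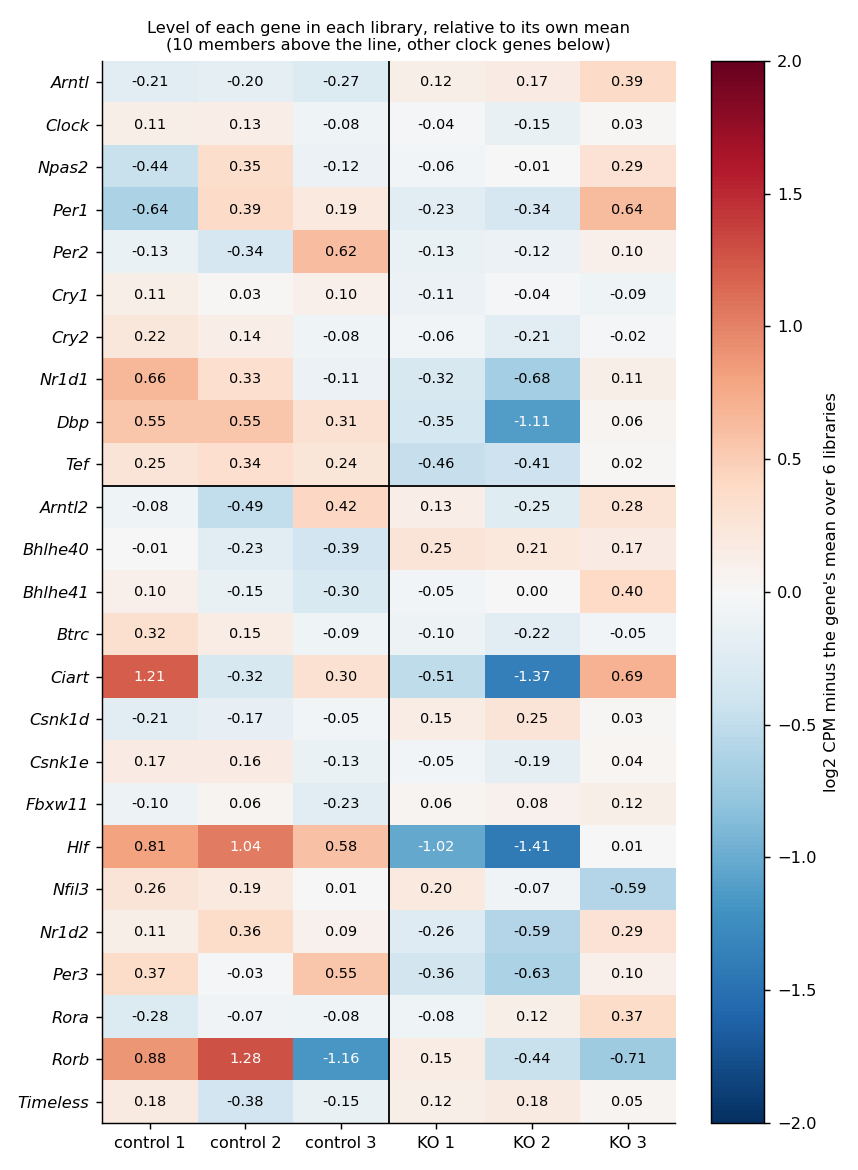
Log2 CPM of each gene in each library minus the gene's own mean over 6 libraries, with the 10 members above the line and 15 other clock genes below it, on a scale from -2 (blue) to 2 (red). Dbp, Tef, Nr1d1 and Hlf are above their means in control 1 and 2 and lowest in KO 1 or KO 2, and Arntl is above its mean in the 3 KO libraries alone.

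Levels of cell type markers differed between the libraries too. The summed level of 6 cardiomyocyte markers ran from 36480 to 61165 CPM in control and from 18196 CPM in KO 2 to 31615 CPM in KO 3, and 5 of the 6 were lower without overlap between genotypes (14.5% of all genes). By edgeR 0 of these 6 were called lower, with 5 at an unadjusted p under 0.05 (25.9% of all genes) and 5 called lower by DESeq2 (9.19% of all genes). The sum of 6 fibroblast markers ran from 6338 to 17738 CPM in control and from 28113 CPM in KO 3 to 39193 CPM in KO 2. Of the 6, 4 were higher without overlap (16.4% of all genes), namely Col1a1, Col1a2, Col3a1 and Postn. Only the matrix gene Postn was called higher by edgeR (2.61% of all genes). Dcn and Pdgfra overlapped, with log2 fold changes of 0.12 and 0.25 (edgeR adjusted p = 0.761 and 0.633), so the sum followed mostly the collagen genes and Postn. KO 2, with the lowest cardiomyocyte and the highest fibroblast sum, was the lowest knockout library for 5 of the 10 members, Dbp and Nr1d1 among them. For the other 5, Tef and Arntl among them, KO 1 was the lowest. Of all genes tested, 34.6% were lowest in KO 2 and 31.2% in KO 1. Endothelial sums overlapped, at 811 to 1064 CPM in control and 793 to 1075 CPM in knockout. The part of cell makeup in the values of the clock genes was not tested.

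Of 18 other clock genes, all measured, 0 were called higher and 0 lower by edgeR, with a median log2 fold change of -0.20. At an unadjusted p under 0.05 there were 3 of the 18 (25.9% of all genes), and DESeq2 called 1 higher and 1 lower (7.71% and 9.19% of all genes). Hlf, the PAR bZIP relative of Dbp and Tef, had the largest fold change of this list. Levels of Hlf were 15.9, 18.6 and 13.5 CPM in control and 4.46, 3.42 and 9.13 CPM in knockout, without overlap and again with KO 3 nearest to control (log2 fold change -1.50 ± 0.38 SE, edgeR adjusted p = 0.0754, 0.00344 by DESeq2 and 0.0352 by edgeR without control 3). Nfil3, which competes with these factors for D-boxes, was at 17.0 ± 1.50 and 14.1 ± 3.74 CPM (adjusted p = 0.467). Per3, a relative of Per1 and Per2, was at 15.8 ± 3.13 CPM in control and 10.6 ± 2.75 CPM in knockout (log2 fold change -0.58 ± 0.25 SE, edgeR adjusted p = 0.196). Nr1d2, a close relative of Nr1d1, was at 122 ± 13.1 and 96.7 ± 30.4 CPM (adjusted p = 0.403). Ciart, a further repressor of the activator pair, had 51 reads or fewer in each library and was at 1.57 ± 0.841 and 0.977 ± 0.693 CPM (adjusted p = 0.570).

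Rora and Rorb, which encode receptors that can activate Arntl through the element that Nr1d1 blocks, did not share a sign. Rora was at 81.0 ± 6.47 CPM in control and 99.1 ± 15.6 CPM in knockout (adjusted p = 0.260), and Rorb was at 3.27 ± 2.12 and 1.71 ± 0.539 CPM (adjusted p = 0.389). Without control 3, Rorb was called lower by edgeR (adjusted p = 0.0491). Bhlhe40, a repressor that competes for E-boxes, was at 60.5, 51.8 and 46.5 CPM in control and 72.5, 70.4 and 68.3 CPM in knockout (log2 fold change 0.41 ± 0.13 SE, edgeR adjusted p = 0.103, 0.0412 by DESeq2). Its relative Bhlhe41 was at 26.5 ± 3.76 and 31.2 ± 5.56 CPM (adjusted p = 0.430), and Arntl2, the relative of Arntl, at 4.93 ± 1.57 and 5.18 ± 0.945 CPM (adjusted p = 0.913).

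Of the genes that act on the stability of the Per and Cry proteins, Csnk1d, Csnk1e, Btrc and Fbxw11 had fitted differences of at most 0.29 in size on the log2 scale. The kinase gene Csnk1d was at 64.3 ± 3.84 CPM in control and 78.6 ± 6.09 CPM in knockout without overlap (adjusted p = 0.156 by edgeR), and Csnk1e was at 58.4 ± 6.70 and 53.0 ± 4.19 CPM (adjusted p = 0.531). Btrc and Fbxw11, ligase subunits that act on the Per proteins, had log2 fold changes of -0.26 and 0.17 (adjusted p = 0.292 and 0.371). Timeless, which in mammals is known mainly for its part at replication forks, had a log2 fold change of 0.22 (adjusted p = 0.502).

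Genes known to follow the clock in heart or in many tissues were fitted lower in 11 of 16 cases. Of all 14466 genes tested, 7089 were fitted lower. Of these 16 genes, 2 were called lower and 0 higher by edgeR (1.09% and 2.61% of all genes). Their median log2 fold change was -0.84, against 0.01 over all genes. At an unadjusted p under 0.05, 1 was higher and 9 were lower, against 1784 higher and 1960 lower of all 14466 genes. DESeq2 called 0 higher and 9 lower, against 7.71% and 9.19% of all genes. This list, like the other lists here, was chosen with earlier results of these data known. Its counts are thus no test of whether clock outputs differ from other genes. Klf15, a transcription factor that links the clock to cardiac metabolism and ion channels, fell from 50.6 ± 10.1 to 19.1 ± 4.07 CPM (log2 fold change -1.40 ± 0.21 SE, edgeR adjusted p = 0.0259). Dgat2, which makes triglyceride, fell from 360 ± 76.4 to 118 ± 38.4 CPM (adjusted p = 0.0405). Both calls were lost without any single library other than control 3 and with the library number as a block. Ucp3, a mitochondrial carrier, was at 31.0 ± 6.30 and 9.30 ± 4.84 CPM (adjusted p = 0.0674). Nampt, whose product makes NAD and whose rhythm is known to depend on the clock, was added here after its values were seen, at 289 ± 28.3 and 174 ± 36.8 CPM (adjusted p = 0.0720). The sum of cardiomyocyte markers, given above, was lower in all 3 knockout libraries too, and its part in these values was not tested.

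Of 12 genes that answer to glucocorticoid, a signal that also acts on Per1, 1 was called lower and 0 higher by edgeR. The shares of all genes were 1.09% and 2.61%, and the median log2 fold change of the 12 was -0.20. At an unadjusted p under 0.05, 2 were higher and 3 lower, and DESeq2 called 0 higher and 2 lower (all genes: 25.9% at that p, 7.71% and 9.19% by DESeq2). The gene called by edgeR was the sulfotransferase gene Sult1a1, which fell from 30.7 ± 3.95 to 17.0 ± 2.81 CPM (adjusted p = 0.0450). That call was lost without any library other than control 3, with the block, and under 3 other settings. Zbtb16 was at 56.6 ± 10.7 and 32.1 ± 15.8 CPM and Cdkn1a at 13.9 ± 3.33 and 23.5 ± 8.29 CPM (adjusted p = 0.190 and 0.160).

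Of the 10 members, 4 had more than 1 transcript in the table. Arntl reads lay almost wholly on 1 transcript of 2908 bases, from 97.1% to 99.6% of the gene's reads in each library. Clock had 3 transcripts that differ at their first exons, and their shares swung widely. The transcript starting at base 76303502 took 39.3%, 8.36% and 37.0% of Clock reads in control 1 to 3 and 59.2%, 5.55% and 61.3% in KO 1 to 3. Its lowest shares were in library 2 of both genotypes, while the gene sum varied far less.

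Per1 reads fell on a transcript starting at base 69098956 and one starting at base 69100158. The latter held 0, 78 and 245 reads in control 1 to 3 and 0, 1 and 230 reads in KO 1 to 3, that is 0% to 44.7% of the gene. A count of 0 allows up to 3 reads. The high values were in library 3 of both genotypes, and control 2 lay between.

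Tef had reads at both of the start sites whose sequences are printed above. The upstream start took 30.5%, 26.3% and 14.8% of Tef reads in control and 9.09%, 24.8% and 24.1% in knockout, with overlap between genotypes and the lowest share in KO 1. The downstream form carried most reads in every library. With this form alone the log2 fold change of Tef was -0.47 (adjusted p = 0.108 by edgeR). How reads were divided between transcripts that share most of their exons is absent from the labels, so these shares are less certain than the gene sums.

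**Figure D5:**
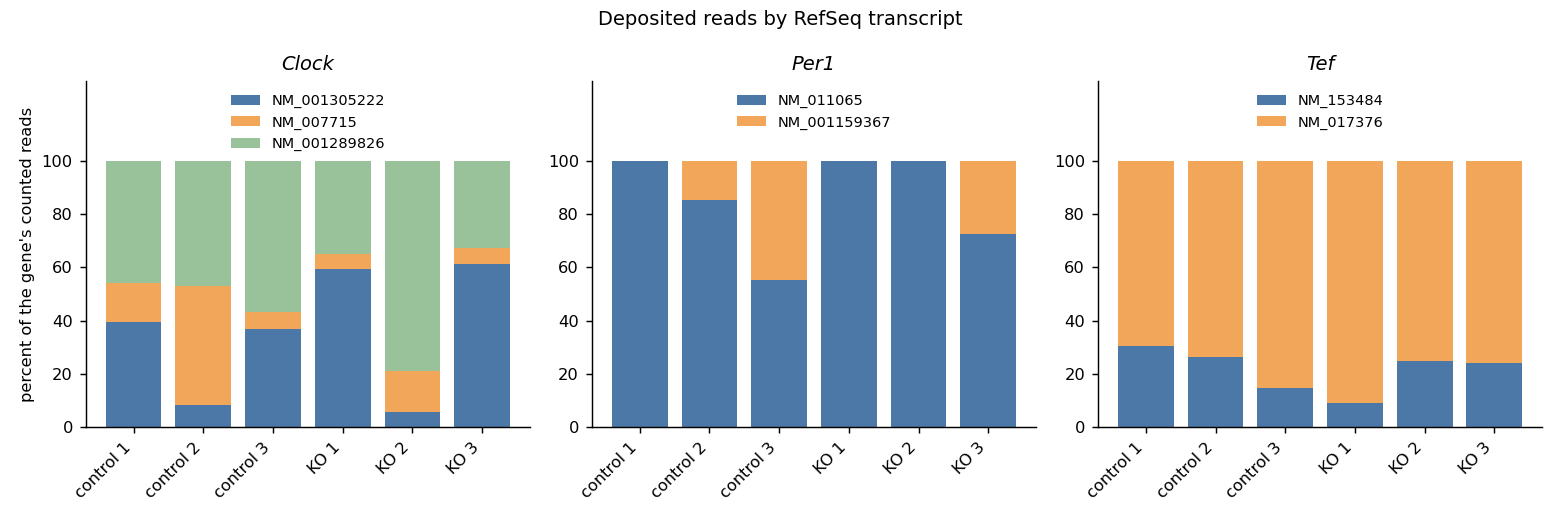
Share of each gene's counted reads on each RefSeq transcript of Clock, Per1 and Tef, in percent, as stacked bars for each library. The share of the second Per1 transcript runs from 0% to 44.7%, and the first Clock transcript is lowest in control 2 and KO 2.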

How the data were processed

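Total RNA was made into libraries by a stranded protocol, per the labels' protocols. The aligners HISAT2 and Bowtie2 and build mm10 are listed, per the submitters' processing notes. The sources used here do not give the counting program, annotation release or use of strand. The authors deposited whole-number read counts and FPKM values for 36780 RefSeq transcripts. The deposited FPKM followed counts over length and library total, with a median ratio of 0.979 to 0.987 to recomputed values.

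Columns named C or KO with a number were given to the control or the NRK-2 KO sample. Counts were summed per gene symbol and tested in edgeR 4.0.16 (R 4.3.3) by the quasi-likelihood test, with TMM factors, the filterByExpr filter and a Benjamini-Hochberg adjusted threshold of 0.05. The fit was checked on simulated data with known changes. All 10 members passed the filter. Between pairs of libraries of a genotype the median chi-square per gene was 3.81 to 17.4, above counting error. The labels name no separate animals for these columns, so p-values measure only the spread between libraries, which need not be that between animals. That spread includes the differences in atrial markers within each genotype given above. Depth sets counting error only: 1 read is worth 0.0280 to 0.0491 CPM.

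Members and lists were chosen with earlier results of these data known. Named were all members, Nmrk2, other clock genes averaging 1 CPM or more (apart from 2 that are counted but not reported here), and, of the output and glucocorticoid lists, the 3 with the largest fold change at a mean of at least 5 CPM. Sphk2, Thra and Nampt were added after values were seen. Alternatives were RLE factors, library totals, no count filter, DESeq2 1.42.0, limma 3.58.1 on log2(FPKM + 1) at a mean of at least 0.1 FPKM, 1 transcript per member, a block for library number, and leaving out libraries. Overlapping exons came from GENCODE M21. Promoter windows came from RefSeq (GRCm38.p6).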

Additional observations from a re-analysis of the deposited data

How the results depend on the processing

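Over 14 alternatives, Arntl stayed higher (log2 fold change 0.36 to 0.56) and Dbp (-1.16 to -0.60), Tef (-0.72 to -0.41), Nr1d1 (-0.83 to -0.12), Cry1 (-0.19 to -0.05) and Cry2 (-0.27 to -0.02) stayed lower in the libraries labelled knockout. Signs turned for Npas2 (-0.06 to 0.35), Per1 (-0.34 to 0.26), Per2 (-0.34 to 0.18) and Arntl2 (-0.12 to 0.34) when 1 library was left out, and for Clock (0.03), Rorb (0.60), Csnk1e (0.06) and Arntl2 (-0.38) without control 1, control 2 and KO 1 together, an alternative chosen after seeing the data that leaves 1 control, assumed to vary like the other libraries. The cause was not tested. In that fit 0 genes rose and 0 fell of all genes (1341 at an unadjusted p under 0.05), and 0 output genes and 0 glucocorticoid-responsive genes fell.

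Of all genes, 378 rose and 157 fell. These became 1116 and 1329 with DESeq2, 6 and 0 with the replicate block (2838 at an unadjusted p under 0.05), and 269 fell with limma. Leaving out 1 library gave 3 to 1719 risers and 0 to 1909 fallers (the 0 without control 2 or KO 3, where 2417 and 3358 genes were at an unadjusted p under 0.05). Members called were 1 higher and 2 lower with DESeq2 and 1 higher with limma, and 0 to 1 higher when 1 library was left out. Of other clock genes, 1 rose with DESeq2, limma or library totals, 1 fell with DESeq2, and 0 to 3 fell when 1 library was left out. Of output genes, 9 fell with DESeq2 and 0 with the replicate block, and 0 to 9 fell and 0 to 1 rose when 1 library was left out. Of glucocorticoid-responsive genes, 2 fell with DESeq2, 0 with limma, with library totals, with no count filter or with the replicate block, and 0 to 1 when 1 library was left out.

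The difference in the log2 ratio of Arntl to Dbp was 1.10 to 1.57 when 1 library was left out, an alternative added after seeing the data, as was that for Nmrk2, whose log2 fold change ran from -6.29 to 0.35. Library totals moved the median of all genes by 0.10 on the log2 scale. Same-numbered control and knockout libraries deviated from their genotype means with correlations of 0.29, -0.30 and -0.34 across genes, so the numbers were not taken to pair libraries. Scarce genes such as Ciart and Per2 rest on few reads.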
